A study of Mus musculus with 24 samples.

Results

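The hippocampus of aged females was compared with that of middle-aged females across all genes on an expression array. The members are the 8 arrays of the FO and FA groups, out of 24 arrays in the series, and they were chosen by group alone. FO mice were 24 months old and FA mice 12 months old. All were C57BL/6 females of an aging colony that received no genetic or drug intervention, and 4 mice per group each gave 1 array of the whole hippocampus. Both groups were killed in diestrus, and the FO mice were in reproductive senescence, so age and loss of cycling cannot be told apart in these groups. Female mice of 3 months (FY) and males of the same 3 ages (MY, MA and MO, 4 mice each) entered the same model and are used where a late change is set beside an earlier one or beside the male one. The values are probe intensities on a linear scale. Intensities at or under 16 were set to 16 before log2 was taken, and a probe was kept if it lay above 16 on all 4 FO arrays or on all 4 FA arrays, which left 11561 of 25697 probes.

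Microglia are the resident macrophages of the brain parenchyma. They survey their surroundings through pattern recognition, Fc and lipid receptors, many of which signal through the adaptor proteins Tyrobp and Fcer1g, and they make most of the complement C1q of the brain. Complement tags debris and synapses for removal, chemokines draw in and position other immune cells, and lysosomal enzymes digest what has been engulfed. In whole tissue, more cells of a type and more RNA per cell cannot be told apart.

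Nearly all called probes were higher in FO, and many were for genes of microglia and innate immunity. With limma and Benjamini-Hochberg adjustment, 42 probes were higher in FO and 1 was lower, out of 11561 tested (0.372% called in either direction, 0.363% higher in FO and 0.00865% lower in FO). The 42 probes stood for 40 gene symbols. They rose by 0.59 to 2.25 on the log2 scale, with a median of 0.94, whereas the median over all probes was 0.018 and 97.0% of probes changed by less than 0.5. Most were dim, and 26 of the 42 had an FO mean under 100. Of the 43, 13 passed the filter on low values only through FO, the group in which they were higher, and 1 only through FA. The FO and FA arrays did not overlap for 41 of the 42 (4.0% of all probes were higher in FO without overlap, and 5.61% did not overlap in either direction). At 1 probe per gene, 36 of 8285 genes were called, all higher in FO (0.435%), and 11 of the 36 had passed the filter only through FO. The counts for gene lists given here include such genes and are descriptions.

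Individual arrays shaped these calls unevenly. FO replicate 2 was the lowest of its group for 36 of the 42 probes and FO replicate 4 the highest for 26, while FA replicate 1 was the highest FA array for 32. The calls numbered 23 without FO replicate 3, 16 without FO replicate 4, 21 without FA replicate 2, 16 without FA replicate 3 and 23 without FA replicate 4, and all of these were among the 43. Leaving out arrays could not reverse the direction of the 42 called probes whose groups did not overlap. The direction of the 43 was kept under every alternative in which they could be tested. C4b, C1qa, C1qc, Ccl4, Slamf9, Ms4a6d, Cd68 and Cd84 stayed called under every such alternative. The least stable call was Lag3, which stayed called under 6 of 19. Aif1 and Aldh1l2 stayed called under 7 of 19, and Cd44 and the dimmer Gpr84 probe under 8 of 18. For Fcer1g and Irf8 the count was 9 of 19, for Myo1f and Tlr7 9 of 18, and for Tyrobp and Fcgr2b 10 of 19.

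Complement gave some of the brightest called changes. Of 9 complement genes tested, 4 rose and none fell (44.4%, against 0.435% of all genes), with a median log2 change of 0.38 against 0.02 over all genes. C4b, the component whose cleavage builds the classical pathway convertase, had intensities of 774, 618, 674 and 876 on FO replicates 1 to 4 and 335, 245, 200.5 and 265 on FA replicates 1 to 4. The lowest FO array lay well above the highest FA array, and C4b was higher in FO by 2.84-fold (95% confidence interval 2.21 to 3.65, limma adjusted p = 7.65e-05). C4b has a near-identical neighbour, C4a, so the assignment of its signal is uncertain. The 3 chains of C1q, the recognition molecule that starts the classical pathway, rose together.

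C1qa read 220.4, 176, 223 and 255 in FO and 128, 100.5, 109.7 and 109 in FA, and was higher in FO by 1.94-fold (95% confidence interval 1.61 to 2.34, limma adjusted p = 0.00032). C1qb read 945, 735, 951 and 1256 in FO and 567, 617, 546 and 531 in FA, a rise of 1.69-fold (95% confidence interval 1.38 to 2.07, limma adjusted p = 0.0105). C1qc read 701, 627, 855 and 916 in FO and 491, 431, 446 and 446 in FA, a rise of 1.69-fold (95% confidence interval 1.44 to 1.99, limma adjusted p = 0.0013). The call of C1qb was lost in 6 of 19 alternatives, among them leaving out FO replicate 4, FA replicate 3 or FA replicate 4. No C1q chain overlapped between the groups, and FO replicate 2 was the lowest FO array for each. The other complement genes tested were not called. Cd59a, which blocks the membrane attack complex, had a log2 change of -0.73 (adjusted p = 0.879), and Serping1, the C1 inhibitor, one of -0.36 (adjusted p = 0.889).

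**Figure D1:**
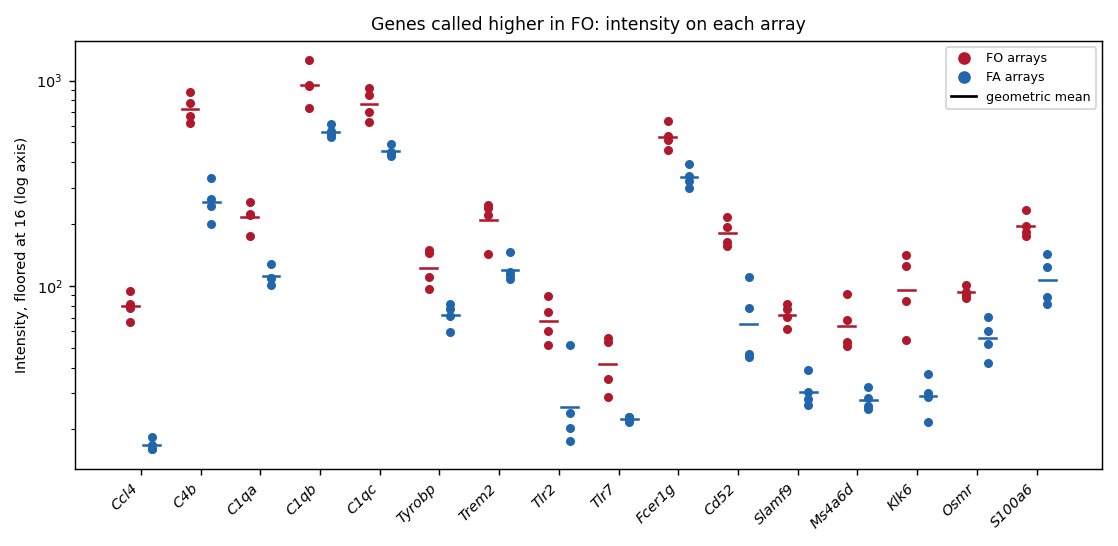
Intensity of 16 genes called higher in FO, on a log axis, with 1 point per array (FO left, FA right of each pair) and the geometric mean of 4 arrays as a bar. The FO and FA points separate for every gene shown except Trem2, and C1qb reaches 1256 on FO replicate 4.

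Chemokines included the largest fitted rise at the floor of 16. Ccl4, a CC chemokine made by microglia and macrophages, read 94.7, 66.6, 81.6 and 78.1 in FO and 18.3, 16.8, 11.9 and 10.4 in FA, so that 2 FA arrays lay at the floor of 16. Its fitted change was 4.75-fold (95% confidence interval 3.62 to 6.24, limma adjusted p = 3.59e-07), and both its size and its rank depend on that floor. With a floor of 32 the log2 change of Ccl4 was 1.32, below the 1.90 of the brighter Lyz2 probe. Ccl3, a closely related CC chemokine, read 43.3, 22.1, 38.2 and 34.1 in FO, whereas all 4 FA arrays were at or under the floor with 8.59, 11.4, 3.48 and 3.88. With FA set to 16, the fitted change of Ccl3 was 2.09-fold (95% confidence interval 1.70 to 2.56, limma adjusted p = 0.00032). The floor understates this rise, and like Ccl4, Ccl3 passed the filter only through FO. Ccl9, a CC chemokine of myeloid cells, read 46.9, 51.6, 63.2 and 66.5 in FO and 32.2, 30.9, 25.1 and 23.2 in FA, a rise of 2.05-fold (95% confidence interval 1.54 to 2.72, limma adjusted p = 0.0123). Across 14 chemokines and receptors, 3 rose and none fell (21.4%, against 0.435% of all genes), and 12 of the 14 means were higher in FO, with a median log2 change of 0.74, but 4 of the 14 and 2 of the 3 called had passed the filter only through FO. The Ccl21 genes, near-identical copies of a ligand of Ccr7 that the probes may not tell apart, were not called. Ccl21c read 271, 139.8, 231 and 140.2 in FO and 103, 43.4, 113 and 39.8 in FA (log2 change 1.48 ± 0.37 SE, adjusted p = 0.123). Ccl12, a Ccr2 ligand, had a log2 change of 0.83 (adjusted p = 0.145), and Cx3cr1, the fractalkine receptor of microglia, one of 0.30 (adjusted p = 0.566).

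Receptors and adaptors of microglia made up a further set. Trem2, a lipid and lipoprotein receptor, read 222, 143, 239.5 and 248 in FO and 145, 108, 113 and 117 in FA, a rise of 1.74-fold (95% confidence interval 1.41 to 2.14, limma adjusted p = 0.00949). It was the only called probe that rose with overlapping groups, since FO replicate 2 lay below FA replicate 1. Its signalling partner Tyrobp read 110.0, 96.4, 149 and 144 in FO and 81.8, 59.8, 71.6 and 76.8 in FA, a rise of 1.71-fold (95% confidence interval 1.34 to 2.17, limma adjusted p = 0.0377). Fcer1g, the adaptor shared by activating Fc receptors, was higher on every FO array, with 514, 458, 538 and 638 in FO against 390.5, 324, 298 and 342 in FA, a rise of 1.58-fold (95% confidence interval 1.30 to 1.93, limma adjusted p = 0.0264).

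Of 10 genes of Fc receptor signalling, 3 rose (0.435% of all genes were called), with a median log2 change of 0.58. Of the 10, 3 had passed the filter only through FO, as had 1 of the 3 called, Fcgr1. That filter favours a higher FO mean. Fcgr2b, the inhibitory receptor for immunoglobulin G, read 41.9, 34.96, 53.9 and 48.9 in FO and 26.6, 22.9, 17.6 and 23.9 in FA, a rise of 1.97-fold (95% confidence interval 1.49 to 2.62, limma adjusted p = 0.018). Fcgr1, the high-affinity activating receptor, was dim, with 21.2, 25.5, 21.8 and 28.3 in FO and 15.3, 11.9, 13.7 and 14.3 in FA. All 4 FA arrays were under the floor. With them set to 16, the fitted change of Fcgr1 was 1.501-fold (95% confidence interval 1.276 to 1.765, limma adjusted p = 0.013). The floor understates this rise. Fcgr3, another activating receptor, had a log2 change of 0.58 (adjusted p = 0.179) with groups that did not overlap.

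Of 8 Toll-like receptor genes, 3 rose (37.5%, against 0.435% of all genes), with a median log2 change of 0.50. Tlr2, a receptor for bacterial lipopeptides, read 60.6, 51.6, 74.2 and 88.8 in FO and 51.3, 24.1, 17.6 and 20.3 in FA, a rise of 2.61-fold (95% confidence interval 1.76 to 3.87, limma adjusted p = 0.0155). FA replicate 1 stood above the other FA arrays and just under the lowest FO array. Tlr7, which senses single-stranded RNA in endosomes, read 28.9, 35.3, 55.7 and 53.2 in FO and 22.9, 22.3, 21.7 and 22.9 in FA, a rise of 1.86-fold (95% confidence interval 1.43 to 2.42, limma adjusted p = 0.0202), and its FO arrays split into a lower and a higher pair. Ly86, a partner of the Toll-like protein Cd180, read 344, 325, 384 and 376 in FO and 245, 184, 225 and 179 in FA, a rise of 1.73-fold (95% confidence interval 1.41 to 2.12, limma adjusted p = 0.00856). Cd14, a coreceptor for lipopolysaccharide, was not called (log2 change 0.68, adjusted p = 0.481).

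Leukocyte surface proteins gave the list with the highest median log2 change, 0.94, and 4 of its 7 genes rose (57.1%, against 0.435% of all genes). Of the 7, 2 had passed the filter only through FO, as had 1 of the 4 called. That gene was Cd84, whose own change is the median, so the rank of the list is only a description. Cd52, a glycoprotein of leukocyte membranes, read 163, 156, 194 and 217 in FO and 111, 78.2, 44.9 and 46.7 in FA, a rise of 2.77-fold (95% confidence interval 1.93 to 3.97, limma adjusted p = 0.0056). Slamf9, of the signalling lymphocyte activation family, read 76.9, 61.5, 70.6 and 81.4 in FO and 39.02, 30.3, 26.3 and 28.01 in FA, a rise of 2.36-fold (95% confidence interval 1.86 to 3.00, limma adjusted p = 0.00032). Ms4a6d, a membrane-spanning protein of macrophages, read 52.98, 50.6, 68.1 and 91.2 in FO and 25.9, 25.1, 28.4 and 32.2 in FA, a rise of 2.30-fold (95% confidence interval 1.80 to 2.94, limma adjusted p = 0.000621). All 3 separated the groups without overlap. Cd84, another member of the Slamf family, was closer to background, with 30.6, 28.5, 32.5 and 39.3 in FO and 19.8, 13.2, 16.1 and 15.4 in FA, and rose 1.92-fold (adjusted p = 0.00173). The other receptors called were Gpr84, a sensor of medium-chain fatty acids, on both of its probes (log2 change 0.92 and 0.70), Adgre1, the macrophage antigen F4/80 (0.84), Lag3, a ligand of major histocompatibility class II (0.94), and Csf3r, the granulocyte colony-stimulating factor receptor (0.88). Their adjusted p-values lay between 0.00305 and 0.0377.

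Promoter sequence is shown for 4 called genes of these groups that RefSeq covers, C1qb, C1qc, Ccl3 and Trem2, because they stand for complement, chemokines and receptors. Each run is the 250 bases before the annotated start of the gene, read 5′ to 3′ on the strand of the gene, in GRCm38.p6. Capitals mark matches to GAGGAA on either strand, a form of the core bound by PU.1, the transcription factor of the macrophage lineage. C1qb lies at chr4:136886201-136886450 on the minus strand, C1qc at chr4:136892915-136893164 on the minus strand, Ccl3 at chr11:83649379-83649628 on the minus strand and Trem2 at chr17:48346151-48346400 on the plus strand.
C1qb: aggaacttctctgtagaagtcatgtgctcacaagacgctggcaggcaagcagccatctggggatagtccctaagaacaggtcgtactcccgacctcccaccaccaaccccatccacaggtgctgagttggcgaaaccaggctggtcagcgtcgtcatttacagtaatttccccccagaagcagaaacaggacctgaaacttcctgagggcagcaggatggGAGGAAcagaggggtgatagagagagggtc
C1qc: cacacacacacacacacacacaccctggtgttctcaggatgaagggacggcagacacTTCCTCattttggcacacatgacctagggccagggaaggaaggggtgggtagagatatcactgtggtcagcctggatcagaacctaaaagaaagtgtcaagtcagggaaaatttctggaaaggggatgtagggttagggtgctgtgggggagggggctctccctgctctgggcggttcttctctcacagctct
Ccl3: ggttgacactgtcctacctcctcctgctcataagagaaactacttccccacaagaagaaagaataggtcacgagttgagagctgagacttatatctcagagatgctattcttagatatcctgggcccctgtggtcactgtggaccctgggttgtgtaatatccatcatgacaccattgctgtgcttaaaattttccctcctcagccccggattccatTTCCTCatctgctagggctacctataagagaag
Trem2: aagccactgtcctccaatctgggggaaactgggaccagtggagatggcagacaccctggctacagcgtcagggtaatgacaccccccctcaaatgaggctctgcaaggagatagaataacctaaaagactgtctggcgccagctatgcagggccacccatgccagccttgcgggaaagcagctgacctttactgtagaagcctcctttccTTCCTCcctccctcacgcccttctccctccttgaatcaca
Each of the 4 runs held 1 match. No promoter without a match is shown, so these 4 do not represent the share among the genes that rose. RefSeq gave 31 promoter windows of 300 bases (250 before and 50 after the start) for 28 of the 40 symbols that rose, and GAGGAA was found in 17 of the 31 (54.8%), against 28.3% of all 32851 windows. The longer GAGGAAG, which contains it, was in 8 of the 31 (25.8%, against 13.6%), and GAGGAAGT, which contains both, in 2 (6.45%, against 3.2%). A pair of GAAA motifs spaced by 2 bases, the form bound by interferon regulatory factors, was in 3 windows, of Aif1 and Trim30a (9.68%, against 3.44%). These shares are descriptions, both strands were searched, and a match does not show a binding site.

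Lysozyme genes and Cd68 also rose. Lyz2, the lysozyme of macrophages, was called on both of its probes. Its brighter probe read 299.7, 167, 436 and 422 in FO and 164, 75.8, 44.5 and 85.9 in FA, a rise of 3.73-fold (95% confidence interval 2.24 to 6.24, limma adjusted p = 0.0105), and its dimmer probe rose 3.85-fold (adjusted p = 0.015). Lyz1, its close copy, read 1009, 602, 1017 and 1589 in FO and 576, 283, 182 and 363 in FA, a rise of 3.09-fold (95% confidence interval 2.05 to 4.66, limma adjusted p = 0.00725), and the probes of the pair may not tell the genes apart. Cd68, a lysosomal membrane glycoprotein of macrophages named here from the study's own probe annotation, read 104, 88.8, 135 and 136 in FO and 58.4, 56.6, 56.2 and 63.95 in FA, a rise of 1.94-fold (95% confidence interval 1.61 to 2.33, limma adjusted p = 0.00032). Of 32 lysosomal genes, Lyz1 and Lyz2 alone were called (6.25%, against 0.435% of all genes), the median log2 change was 0.09, and 11 means were lower in FO. Ctss, the cathepsin of antigen-presenting cells, read 78.8, 71.4, 125 and 71.03 in FO and 46.7, 43.3, 30.8 and 42.1 in FA but was not called (log2 change 1.06 ± 0.26 SE, adjusted p = 0.11).

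Transporters and channels of phagocytes were among the called genes. Hvcn1, the proton channel that balances charge for the phagocyte oxidase, read 56.04, 38.9, 61.8 and 62.3 in FO and 29.5, 27.8, 23.3 and 18.9 in FA, a rise of 2.19-fold (95% confidence interval 1.68 to 2.87, limma adjusted p = 0.00355). Slc11a1, a metal transporter of phagosomes, read 76.7, 55.1, 86.1 and 99.1 in FO and 46, 29.4, 29.1 and 40.7 in FA, a rise of 2.18-fold (95% confidence interval 1.64 to 2.89, limma adjusted p = 0.00725). Slc15a3, a peptide transporter of the lysosome, rose by 1.16 on the log2 scale (adjusted p = 0.013), with 2 FA arrays at the floor. Irf8, a transcription factor that microglia require, read 34.99, 32.3, 51.4 and 36.2 in FO and 24.2, 15.8, 11.03 and 20.3 in FA. Its log2 change of 1.02 (adjusted p = 0.0264) was 0.25 with a floor of 32, where it was no longer called (adjusted p = 0.89). Myo1f, a myosin of immune cells, and Trim30a, an interferon-induced regulator of Toll-like signalling, rose by 0.91 and 0.64 on the log2 scale (adjusted p = 0.0168 and 0.0105).

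Genes that mark resting microglia had mostly higher means in FO, and none was called (0.435% of all genes were). Of 12 homeostatic microglial genes, 11 means were higher in FO and 5 had an unadjusted p under 0.05 (at that level 4.08% of all genes were higher and 1.45% lower in FO). Their median log2 change was 0.27. P2ry12, the purinergic receptor that guides microglial processes, had a log2 change of 0.42 (adjusted p = 0.879), and Tmem119, a microglial membrane protein, one of 0.42 (adjusted p = 0.743). Aif1, the cytoskeletal marker Iba1, lay just inside the threshold. It read 129, 106, 122 and 137 in FO and 102, 75.5, 77.5 and 75.2 in FA, a rise of 1.505-fold (95% confidence interval 1.25 to 1.81, limma adjusted p = 0.0417), while its brighter probe had a log2 change of 0.50 and was not called. Csf1r, the receptor for the growth factor on which microglia depend and also named from the study's annotation, lay just outside, with 269, 333, 369.8 and 342 in FO and 247, 223, 228 and 219.5 in FA (log2 change 0.51 ± 0.12 SE, adjusted p = 0.0507). Whether these genes differed in their change from the called ones was not tested.

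Genes induced in microglia near plaques, the disease-associated set, gave 4 calls among 20 and a median log2 change of 0.35. The calls were Lyz2, Cd52, Trem2 and Tyrobp. Gpnmb, a glycoprotein of lipid-laden macrophages, had a log2 change of 0.72 (adjusted p = 0.537), Ctsz, a cathepsin, 0.64 (adjusted p = 0.346), and Apoe, the main lipoprotein of the brain, 0.11 (adjusted p = 0.893).

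**Figure D2:**
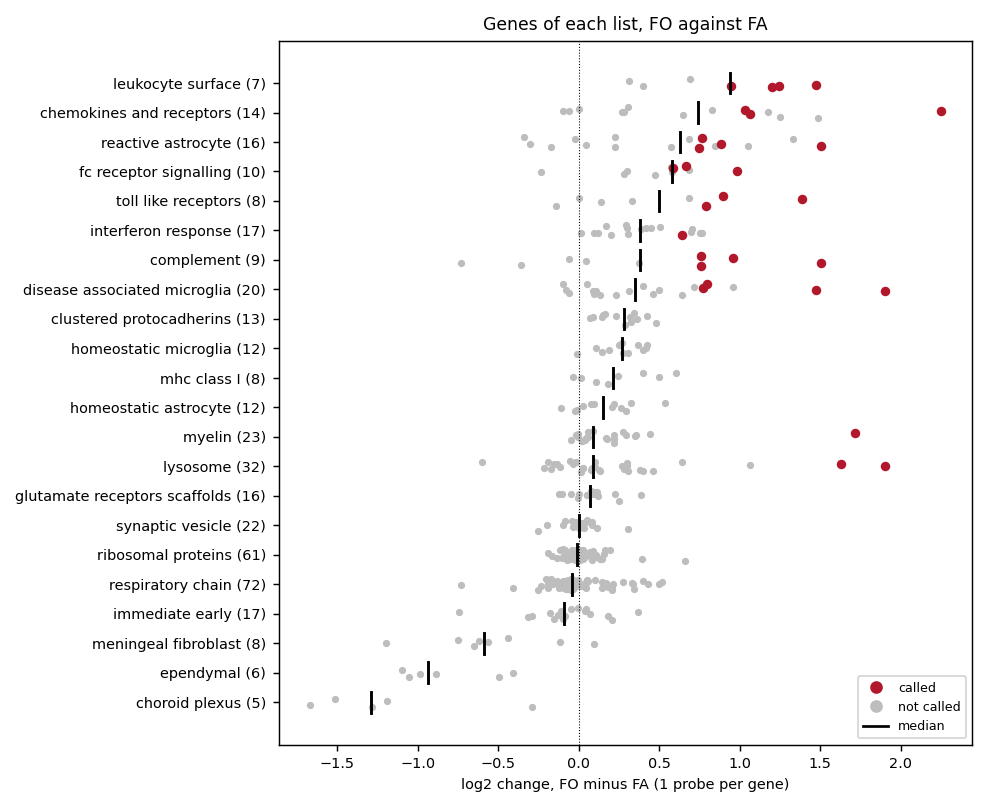
Log2 change (FO minus FA) of each gene in 22 lists, 1 probe per gene, with called genes in red, other genes in grey and the list median as a bar. Numbers in parentheses are genes tested. Medians run from 0.94 for leukocyte surface genes to -1.29 for choroid plexus markers, and all called genes lie above 0. Of the 7 leukocyte surface genes, 2 had passed the filter only through FO.

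The summed level of microglial markers was higher on every FO array than on any FA array. The sum over 18 genes was 3566.2 to 4920.2 on the FO arrays and 2818.9 to 2965.5 on the FA arrays. Of the 16 tested genes, 5 were called (31.2%, against 0.435% of all genes). Over the 13 genes whose list probe was not called, the sum was 1788.8 to 2102.2 in FO and 1507.7 to 1576.9 in FA. The 13 include Itgam and Ptprc, which were not tested, and Aif1, which was called on its dimmer probe. The sum of 11 astrocyte markers, none of them called, also did not overlap between the groups, at 16861.4 to 17658.4 in FO and 14725.3 to 16572.9 in FA. Itgam and Ptprc, which mark microglia and other leukocytes, were at or under 16 on all 8 arrays. Markers of blood cells differed in level. The sum of 3 erythroid markers was 2409.5, 2382.8, 5253.4 and 11903.6 on FO replicates 1 to 4 and 3405.9 to 4423.4 in FA, so it was highest on FO replicate 4, the array that was also highest for 26 of the 42 rising probes. Without that array 16 probes were called, and 16 were also called without FA replicate 3, whose erythroid sum was 3405.9. For lymphocytes, 14 of 15 markers lay at or under 16 on all 8 arrays, and for neutrophils and monocytes 6 of 9 did. The sum of the neutrophil and monocyte markers was 43.1 to 114.6 in FO, highest on FO replicate 4, and 23.6 to 72.2 in FA. The part of blood cells in the called changes was not tested beyond leaving out arrays. For macrophages of the brain's borders, 3 of 7 were at or under 16, and the summed level was 45.9 to 94.4 in FO and 44.3 to 97.2 in FA.

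Published gene lists of cell types, which the study used as references, were counted in the same way. Of 183 genes in the Zhang microglial list, 27 were called (14.8%, against 0.435% of all genes), and the median log2 change was 0.29. At an unadjusted p under 0.05, 76 were higher and none lower in FO, against 4.08% and 1.45% of all genes. The Zeisel microglial list gave 23 of 189 (12.2%). The microglial sensome of Hickman, the receptors through which microglia sense their surroundings, gave 13 of 42 (31.0%), with 41 of 42 means higher in FO. Genes kept only through FO, a filter that favours a higher FO mean, were 29 of the 183 and 8 of the 27 called in the Zhang list. They were 21 of the 189 and 7 of the 23 called in the Zeisel list, and 8 of the 42 and 3 of the 13 called in the sensome. Other cell types gave few calls. There were 2 of 156 in the Zhang endothelial list (1.28%, Osmr and Depp1) and 1 of 87 in the Zhang astrocyte list (1.15%, Cd44). The Zeisel endothelial, oligodendrocyte and ependymal lists gave 1 each (0.61%, 0.388% and 0.559%, Depp1, Klk6 and S100a6). The Zeisel lists for pyramidal neurons of CA1 and of cortex, interneurons and astrocytes gave 0, near the 0.435% of all genes. For activation states, 0 of 25 genes of M0 were called and 3 of 20 of M1 (15.0%, Ccl4, Ccl3 and Fcgr1). For M2 the count was 2 of 24 (8.33%, Trem2 and C1qa), against 0.435% of all genes. All 3 calls of M1 had passed the filter only through FO, so nothing is read from that count. A list of genes that the study itself singled out on these samples gave 8 of 21, which is not independent evidence.

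Reactive astrocyte genes were partly called. Of 16, 4 rose, namely C4b, S100a6, Osmr and Cd44 (0.435% of all genes were called), and the median log2 change was 0.63. Of the 16, 2 had passed the filter only through FO, as had 1 of the 4 called, Cd44. C4b was also counted among the complement genes. Osmr, the receptor for oncostatin M, read 93.8, 87.4, 100.6 and 90.4 in FO and 70.6, 52.1, 42.3 and 60.6 in FA, a rise of 1.68-fold (95% confidence interval 1.37 to 2.05, limma adjusted p = 0.0105). S100a6, a calcium-binding protein, read 234, 176, 183 and 196 in FO and 143, 81.6, 87.97 and 124 in FA, a rise of 1.85-fold (95% confidence interval 1.47 to 2.32, limma adjusted p = 0.00828). Cd44, a hyaluronan receptor, rose by 0.77 on the log2 scale (adjusted p = 0.0264), with 2 FA arrays at the floor. Gfap, the intermediate filament of astrocytes, did not pass the test although its groups did not overlap. Gfap read 194, 168, 436 and 197 in FO and 103, 84.4, 84.8 and 94.3 in FA, and FO replicate 3 stood far above the rest (log2 change 1.33 ± 0.34 SE, adjusted p = 0.128). Serpina3n, a secreted protease inhibitor, read 1174, 832, 918 and 1442 in FO and 562, 487, 537 and 480.5 in FA (log2 change 1.05 ± 0.28 SE, adjusted p = 0.17). Vim, a filament protein induced in reactive glia, had a log2 change of 0.57 (adjusted p = 0.226). None of 12 homeostatic astrocyte genes was called (median log2 change 0.15).

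A few called genes lie outside immune and astrocyte lists. Klk6, a secreted serine protease of oligodendrocytes, read 125, 54.4, 84.2 and 142 in FO and 37.4, 29.9, 21.8 and 28.9 in FA, a rise of 3.28-fold (95% confidence interval 2.10 to 5.11, limma adjusted p = 0.00828). Klk6 was the only called gene of 23 myelin genes (4.35%, against 0.435% of all genes), whose median log2 change was 0.09. Cela1, a serine protease of the elastase family, read 61.3, 50.2, 56.4 and 53.3 in FO and 24.5, 30.6, 36.6 and 27.2 in FA, a rise of 1.88-fold (95% confidence interval 1.49 to 2.36, limma adjusted p = 0.00725). Aldh1l2, the mitochondrial folate enzyme, rose 1.77-fold (adjusted p = 0.0298). Depp1, an autophagy regulator and target of forkhead factors, read 39.6, 34.9, 36.8 and 106 in FO and 10.4, 7.19, 7.80 and 18.99 in FA. Its fitted change of 2.88-fold (adjusted p = 0.00828) depends on the floor, since 3 FA arrays lay under it. With a floor of 32 its log2 change was 0.59 and it was not called (adjusted p = 0.741). FO replicate 4 stood far above the other FO arrays, and without it the log2 change was 1.15 (limma adjusted p = 0.0253).

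The one called probe that fell was for Mid1, an E3 ubiquitin ligase whose gene spans the edge of the pseudoautosomal region of the mouse X chromosome, and it was named from the study's annotation. It read 40.1, 16.2, 10.9 and 13.99 in FO and 52.5, 77.4, 74.1 and 118 in FA, and 2 FO arrays were at the floor. The log2 change was -1.94 ± 0.39 SE (limma adjusted p = 0.0196), and the groups did not overlap. The call was lost when any 1 of FO replicates 2, 3 and 4 or FA replicates 2, 3 and 4 was left out. Erdr1, a gene of the same region, read 354, 188, 5.53 and 171 in FO and 578, 760.0, 630.2 and 1126 in FA (log2 change -2.69 ± 0.62 SE, adjusted p = 0.068) and was not called. FO replicate 3 was the lowest array for both.

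**Figure D3:**
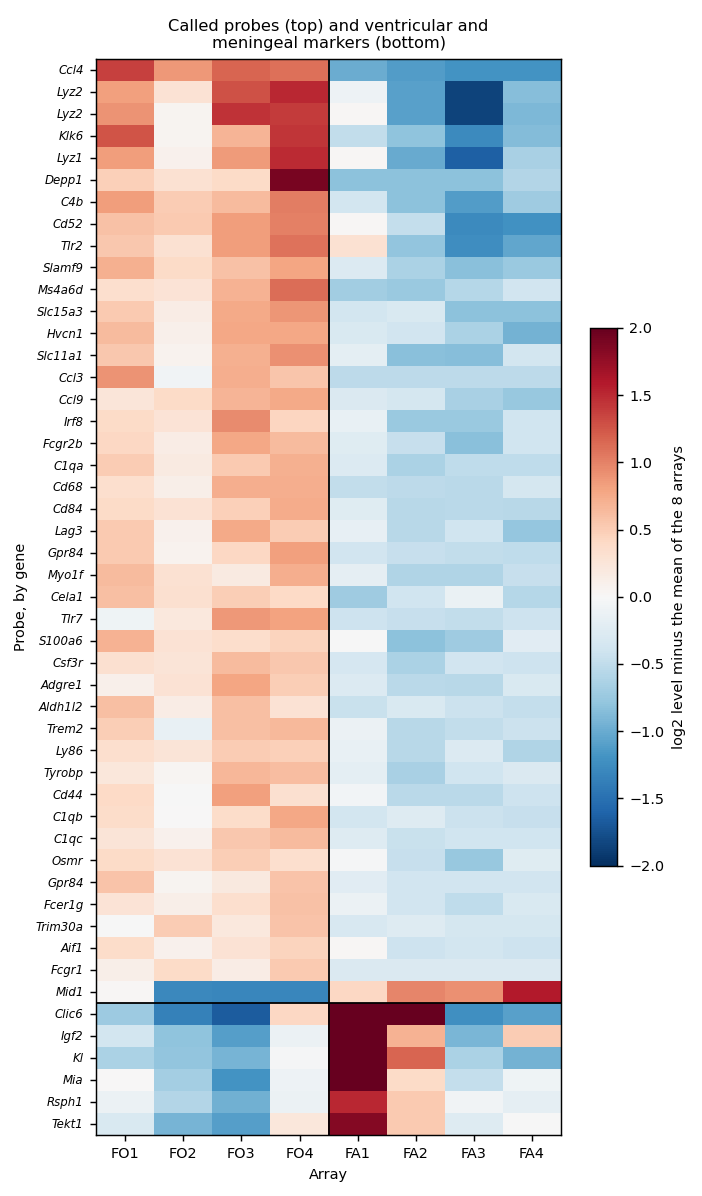
Log2 level of the 43 called probes (top, ordered by change) and of 6 choroid plexus, ependymal and meningeal markers (bottom) on each FO and FA array, relative to the mean of the 8 arrays. The upper block separates FO from FA, while the lower block is highest on FA replicate 1.

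Markers of tissue next to the hippocampus varied between arrays, and their part in the called changes was not tested beyond leaving out arrays. The summed level of 14 choroid plexus markers was 2846.4 to 10120.3 in FO and 1695.0 to 22826.6 in FA, with FA replicates 1 and 2 and FO replicate 4 high. Kl, which encodes klotho, a coreceptor for fibroblast growth factors made in the choroid plexus, read 126, 113, 102 and 192 in FO and 1369, 437, 127 and 101.3 in FA (log2 change -1.19, adjusted p = 0.879). Without FA replicates 1 and 2 its log2 change was 0.19. All 6 ependymal genes tested had lower means in FO and 4 had an unadjusted p under 0.05, but none was called (median log2 change -0.94). Tekt1, a protein of ciliary microtubules, read 35.5, 23.03, 20.5 and 51.6 in FO and 157, 63.3, 36.9 and 43.8 in FA (log2 change -1.05, adjusted p = 0.879). Of 8 meningeal genes, 7 had lower means in FO and none was called (median log2 change -0.59), and Igf2, a growth factor of meninges and choroid plexus, read 1021, 761, 614 and 1218 in FO and 5643, 2150.0, 706 and 1885 in FA. The Zeisel ependymal list had 19 genes lower and 4 higher in FO at an unadjusted p under 0.05 among 179, where 1.45% of all genes were lower and 4.08% higher. Without FA replicates 1 and 2, 28 probes were called, all higher in FO, and 24 of them were among the 43.

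Interferon and antigen presentation genes were mostly not called. Of 17 interferon response genes, Trim30a alone was called (5.88%, against 0.435% of all genes). All 17 means were higher in FO (54.5% of all genes), with a median log2 change of 0.38. Of the 17, 2 had passed the filter only through FO, Trim30a among them. Gbp3, a guanylate-binding protein, had a log2 change of 0.77 (adjusted p = 0.877) and Oasl2, an antiviral protein, one of 0.70 (adjusted p = 0.582). None of 8 class I genes (median log2 change 0.21) and none of 6 class II genes (0.11) was called. B2m, the light chain of class I, read 2256, 2158, 2019 and 2414 in FO and 2199, 1599, 1231 and 1371 in FA, and FA replicate 1 overlapped the FO arrays (log2 change 0.50, adjusted p = 0.197). None of 16 cytokines and their receptors was called.

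Neuronal and housekeeping gene groups gave no calls, which is near the 0.435% of all genes. This held for 22 synaptic vesicle genes, 16 glutamate receptor and scaffold genes and 17 immediate early genes. It also held for 72 respiratory chain genes, 61 genes with Rpl or Rps symbols and 33 proteasome genes. The 61 include Rps6ka3, Rps6ka5, Rps6kl1 and Rps19bp1, which do not encode ribosomal proteins. The median log2 changes of these lists lay between -0.09 and 0.07. Npas4, an activity-induced transcription factor, read 72.1, 70.1, 112 and 66.9 in FO and 105, 122, 140.2 and 164 in FA (log2 change -0.74, adjusted p = 0.879). Dlg4, the postsynaptic scaffold PSD-95, had a log2 change of 0.12 (adjusted p = 0.938) with an interval on the fold scale of 0.84 to 1.39. None of 13 clustered protocadherin genes, which encode neuronal recognition proteins, was called either, but all 13 means were higher in FO and 4 had an unadjusted p under 0.05 (median log2 change 0.28), where 54.5% of all genes had higher means in FO and 4.08% were higher at that level. Of the 13, 3 had passed the filter only through FO, which favours a higher FO mean. Pcdhb7 had a log2 change of 0.42 (adjusted p = 0.281).

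The late change in females was then set beside that in males. For the 42 probes that rose, the MO mean was higher than the MA mean for 39, with a median log2 change of 0.33, and 20 had an unadjusted p under 0.05 in males. No probe was called between MO and MA with limma (0.0%, lowest adjusted p = 0.0692, 636 at an unadjusted p under 0.05). The difference between the female and the male late change was larger in females for all 42, which the choice of probes on the female contrast favours. No probe passed the test of that difference (0.0%, lowest adjusted p = 0.102), though 453 of all probes (3.92%) and 28 of the 42 had an unadjusted p under 0.05. Ccl4 had a log2 change of 2.25 ± 0.19 SE in females and 0.72 ± 0.19 SE in males, with a difference of 1.53 (adjusted p = 0.102). Ccl4 read 14.4, 33.3, 25.6 and 42.4 in MO and 9.07, 19.1, 2.01 and 12.9 in MA. In MA only the 19.1 lay above the floor, and in MO the 14.4 lay under it. The floor also set 2 FA arrays, so it understates both changes, and their difference depends on it. C4b changed by 1.504 ± 0.17 SE in females and 1.02 ± 0.17 SE in males, with a difference of 0.48 (adjusted p = 0.98). C1qa changed by 0.96 ± 0.13 SE in females and 0.20 ± 0.13 SE in males, with a difference of 0.76 (adjusted p = 0.98).

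**Figure D4:**
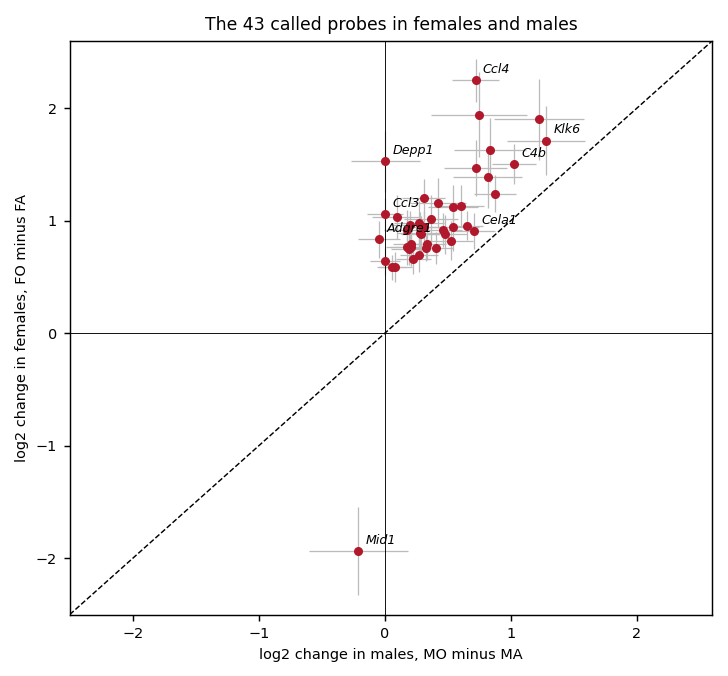
Log2 change of the 43 called probes in females (FO minus FA, vertical axis) against males (MO minus MA, horizontal axis), with standard errors as bars and equal change as a dashed line. All 42 risers lie above the line, and their median change is 0.94 in females and 0.33 in males.

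Earlier change in females was smaller for these genes. From 3 to 12 months (FA against FY) the 42 probes had a median log2 change of 0.14, and 33 of the 42 means were higher in FA. The late change exceeded the earlier one for all 42, and 33 had an unadjusted p under 0.05 in that test (8.67% of all probes). The choice of probes on FO against FA favours a larger late change, and the FA arrays enter both changes with opposite sign. After adjustment, Ccl4 alone was called (0.00865% of probes), with a late change larger than the earlier one by 2.18 on the log2 scale (limma adjusted p = 0.0109). The next lowest adjusted p was 0.190. Ccl4 read 7.17, 3.70, 3.99 and 12.2 in FY, all under the floor, as were 2 FA arrays, so the floor sets its earlier change. With a floor of 8 no probe was called in this test, nor with no filter or without FA replicate 2, 3 or 4. Cd52 had a higher mean at 12 than at 3 months, with 35.5, 43.98, 36.3 and 50.6 in FY, 111, 78.2, 44.9 and 46.7 in FA and 163, 156, 194 and 217 in FO. Ccl9 had its lowest level at 12 months, with 45.6, 33.2, 53.4 and 53.8 in FY, 32.2, 30.9, 25.1 and 23.2 in FA and 46.9, 51.6, 63.2 and 66.5 in FO.

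**Figure D5:**
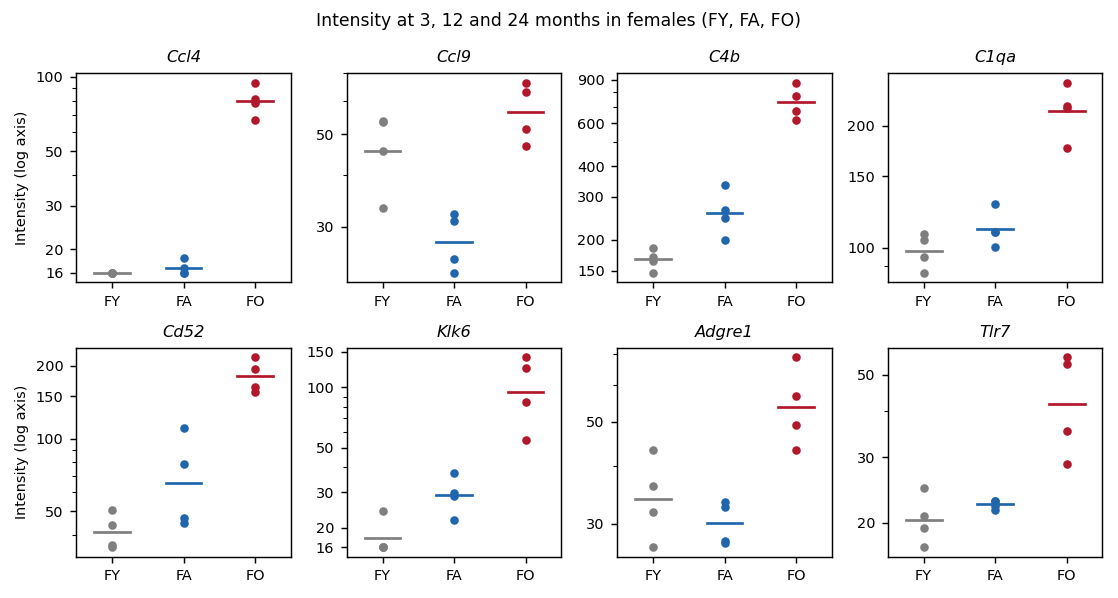
Intensity of 8 called genes on each female array at 3 (FY), 12 (FA) and 24 months (FO), on log axes with a floor of 16 and the geometric mean as a bar. Ccl4 lies at or near the floor at 3 and 12 months and at 66.6 to 94.7 at 24 months, while Ccl9 is lowest at 12 months.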

How the data were processed

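Illumina mouse Ref8 arrays were hybridized with hippocampal RNA, 1 array per mouse. The deposited intensities were made by the authors in GenomeStudio (2011.1 per the submitters' processing notes) by average normalization and background subtraction, are linear, and have the same mean of 206.642 on every array, with 22.4% of values below 0. A second table, of unnormalized signal, has 48 columns that match no sample label and was not used. No read depth applies, and the number of arrays limits the precision.

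Values were floored at 16 and log2 transformed, so fold changes of dim probes are understated. A model of 6 group means over 24 arrays was fitted with limma 3.58.1 in R 4.3.3, with empirical Bayes moderation and a trend. P-values were adjusted with Benjamini-Hochberg over 11561 probes, and a probe was called at an adjusted p under 0.05. The methods' test (two-way analysis of variance, Student-Newman-Keuls and a fold limit of 1.2) was an alternative. The script was tested on simulated data. Replicates are separate mice.

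Of 25697 probes, 23978 had 1 gene in the platform annotation and 1719 none. Symbols were updated by Entrez number to GRCm38.p6 RefSeq, and a few probes with no platform name, among them those of Cd68, Mid1 and Csf1r, were named from the study's probe annotation. Lists used 1 probe per gene, the one with the highest mean over all arrays. Genes with values are the 20 called probes that rose most, the 10 that fell most (1 did), every called probe of a list, the genes the study singled out, and for described lists up to 4 members with the smallest p and 2 with the largest opposite change. Others, among them Tmem119, Apoe, Csf1r and Cd14, were chosen after their values were seen. Members and lists were chosen with earlier results of these data known. 2 of the published sheets, for neurons and oligodendrocyte precursors, held the same genes and were left out. Promoter sequences came from RefSeq.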

Additional observations from a re-analysis of the deposited data

Results flagged for a closer look

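Over 222 groups of 4 arrays, 12 held 1 array far from the other 3, measured as its gap over the range of the group, and chance flags about 1 in 20. In FO, FO replicate 4 stood high for Depp1 (ratio 0.886), the summed endothelial markers (0.938, with 3222.8 against 2123.0 to 2191.0) and the summed choroid plexus markers (0.847). FO replicate 3 stood high for Gfap (0.832) and Npas4 (0.854), and FO replicate 1 for Mid1 (0.985). In FA, FA replicate 1 stood high for Cd84 (0.978), one probe of Gpr84 (1.000), Aif1 (0.904), Cyba (0.880) and Cxcl16 (1.000), and FA replicate 4 for Depp1 (1.000). Ratios of 1.000 arise where the other 3 arrays are at the floor.

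Ccl4 changed more from 12 to 24 months than from 3 to 12 months in females, by 2.18 on the log2 scale (limma adjusted p = 0.0109), with all 4 FO arrays above all FA and FY arrays. All 4 FY and 2 FA arrays were under the floor, and with a floor of 8 no probe was called in that test.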

How the results depend on the processing

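The FO against FA calls (43, with 42 higher and 1 lower in FO) stayed within 1.5 times with a floor of 8 or 32, a filter over all 6 groups, quantile normalization, median centring and no trend. They numbered 22 (22 higher, 0 lower) with no filter, 17 with only FO and FA in the fit (16 higher), 79 with array weights (75 higher, 4 lower), 242 by the methods' test (205 higher, 37 lower) and 69 by that test after Benjamini-Hochberg (66 higher, 3 lower). A floor of 32 gave 2 lower calls. Leaving out 1 array gave 16 to 48 calls, 16 to 47 higher and 0 to 2 lower. Without FA replicates 1 and 2 together, an alternative chosen after seeing the data, there were 28 calls, with 0 lower. The cause of these differences was not tested.

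The count for the late change of females against males was 0 and became 1 with a floor of 32, 2 with no trend and 0 to 2 when 1 array was left out. The count for late against earlier change was 1 and became 0 with a floor of 8, 0 with no filter, 2 with array weights, 0 to 2 when 1 array was left out and 0 without FA replicates 1 and 2. No called probe changed sign in 807 refits, and 217 of them no longer passed. For the 42 called probes whose groups did not overlap, leaving out arrays could not change the sign. Among uncalled genes, Ttr changed sign to 0.21 without FA replicate 1, 0.16 without FA replicate 2 and 1.14 without both, where Clic6 was 0.32, Kl 0.19 and Dlg4 -0.01. With 1 array left out Ttr ran from -0.90 to 0.21, Surf1 from -0.01 (without FO replicate 3) to 0.13 and Dync1li2 from -0.01 to 0.03. Dync1li2 was -0.03 with quantile normalization, -0.02 with median centring or array weights, and -0.01 without FO replicate 3, FO replicate 4 or FA replicate 3.

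Replicate numbers did not pair the samples: same-numbered FO and FA arrays correlated in their deviations by -0.11 to 0.14, and 1 of 4 FO arrays correlated best with its own number. With the replicate block there were 43 calls (42 higher, 1 lower), 41 of them among the 43 without it, 0 for females against males and 1 for late against earlier change. Signal near background limits the dim probes: 13 of the called probes were kept only through FO and 1 only through FA.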
